A study of Mus musculus with 6 samples.

Results

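Cytosolic ribosomal protein genes are the subject here: the protein-coding genes of the deposited mouse colon table whose symbol is Rpsa, Rplp0 to Rplp2, or Rpl or Rps followed by a number and at most 1 letter. The rule used names and biotype alone and found 80 genes of 54532, of which 49 belong to the large and 31 to the small ribosomal subunit. The study sequenced RNA from whole colon of C57BL/6 mice at postnatal day 56, in 3 libraries from wild-type mice (WT) and 3 from mice labelled IL10-/-. Mice that lack the anti-inflammatory cytokine interleukin 10 are widely used as a model of spontaneous colitis. The authors deposited FPKM values (fragments per kilobase of gene length, scaled for the size of the library). The labels number the libraries 1 to 3 in each group but do not say that each came from a separate mouse, so the p-values below measure the spread between these libraries, which may be technical.

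Each ribosome is built from ribosomal RNA and 1 copy of nearly every cytosolic ribosomal protein, with the stalk proteins as the main exception. Translation of their mRNAs is held in common by a pyrimidine tract at the very 5′ end, the TOP motif, which is read downstream of mTOR through Larp1 and which elongation factors share. In the gut, ribosomal protein mRNA is abundant in the dividing cells of the crypt and in activated lymphocytes. In bulk tissue, fewer cells of a type and less RNA per cell cannot be told apart.

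Sequence bears on these genes in a pair of ways, and a few short stretches show both. The first is the start of transcription. RefSeq start sites (GRCm38.p6) were matched by symbol for 60 of the 80 genes, in 72 entries. Shown are 50 bases, 30 before and 20 from the start site on, of the 5 matched genes whose expression difference between the groups was greatest, 5′ to 3′ on the transcribed strand, with capitals marking, where there is one near the start, the longest run of pyrimidines counted from a C. Rps29, also among the genes with the greatest differences, is not in that table.
Rpl7a (chr2:26910777-26910826, plus strand): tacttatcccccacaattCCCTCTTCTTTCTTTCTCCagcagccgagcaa
Rpl15 (chr14:18270967-18271016, minus strand): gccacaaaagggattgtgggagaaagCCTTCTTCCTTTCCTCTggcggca
Rpl41 (chr10:128549149-128549198, minus strand): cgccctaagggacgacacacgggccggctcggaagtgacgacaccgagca
Rplp0 (chr5:115559437-115559486, plus strand): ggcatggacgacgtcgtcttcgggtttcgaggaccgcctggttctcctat
Rps28 (chr17:33824543-33824592, minus strand): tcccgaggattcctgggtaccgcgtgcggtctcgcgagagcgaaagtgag

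Counted from its first C, the run over the start held 19 pyrimidines in Rpl7a and 17 in Rpl15, while the other 3 windows held no such run at the annotated start. The Rpl41 window lay inside the gene, whose deposited 5′ end is at 128549305. Start sites used in these libraries were not measured, so a window without a run does not show that the mRNA lacks a TOP motif. A C followed by at least 5 bases that are each C or T, on the transcribed strand and within 10 bases of an annotated start, was present in 33 of the 60 genes (55%), against 21.9% of the 27025 genes in the RefSeq table. Among 69 nuclear genes for mitochondrial ribosomal proteins, which form a separate ribosome, 16 (23.2%) had one. The heptamer CCGGAAG, a core letter pattern of ETS-family binding sites, was found on either strand of the 300-base promoter windows of 25 of the 60 genes (41.7%), against 9.93% of all genes and 37.7% of the mitochondrial ribosomal protein genes. On the other strand it reads CTTCCGG, whose first letters can lie inside a pyrimidine run. These matches describe letters in a window and were not tested against the expression values.

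The second is the great number of near-identical copies of these mRNAs in the genome. Shown are the first 60 coding bases of Rps27, of its paralogs Rps27rt and Rps27l, and of Rps10 and its processed pseudogene Rps10-ps2, from GENCODE M21 transcripts (GRCm38), with capitals marking bases that differ from the gene named first in each set.
Rps27 (chr3:90212522-90213651, minus strand): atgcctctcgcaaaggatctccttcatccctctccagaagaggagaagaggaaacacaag
Rps27rt (chr9:114982366-114982739, minus strand): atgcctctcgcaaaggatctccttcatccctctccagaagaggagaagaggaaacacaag
Rps27l (chr9:66946086-66949516, plus strand): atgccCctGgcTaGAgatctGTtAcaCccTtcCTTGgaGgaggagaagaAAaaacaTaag
Rps10 (chr17:27630418-27636669, minus strand): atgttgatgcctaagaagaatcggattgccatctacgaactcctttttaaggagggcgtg
Rps10-ps2 (chr16:20822145-20822640, minus strand): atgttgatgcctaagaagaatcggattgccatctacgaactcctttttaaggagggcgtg

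The positions are those of the genes, given by the deposited table, and the stretches begin at the first coding base. Rps27rt matched Rps27 at all 252 coding bases, so a read inside that sequence cannot be placed between them, whereas Rps27l differed from Rps27 at 60 of the 252 bases (76.2% identity), 18 of them in the stretch shown. Rps10-ps2 differed from Rps10 at 1 of the first 400 coding bases (99.8% identity) and at none of the 60 shown. Over the whole family, a median of 53.3% of the 50-base words of a gene's mRNA also occurred in annotated transcripts of another gene, with a range from 0 to 98.6%. How reads that fit several places were handled is not given in the sources used here, so values of the individual genes with copies are uncertain.

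As a check of the labels, Il10 itself had values of 0.757, 0.173 and 0.177 FPKM among the WT libraries. Values of 13.8, 10.6 and 14.5 FPKM were found where the label is IL10-/-, a log2 fold change of 3.36 (SE 0.25, limma adjusted p = 0.0092). Il10 values were thus higher where the label names its loss, so these values do not establish the genotype. The labels do not give the form of the allele or which bases it removes, and reads outside a deleted part check nothing. Directions below therefore rest on the labels, and the libraries are called knockout-labelled. Recovered totals were 13107941 to 15797928 reads per library, and the share of reads on mitochondrial genes was 20.3%, 11.7% and 43.4% in the WT and 22.0%, 8.61% and 15.5% in the knockout-labelled libraries. FPKM values were not scaled to these totals alone. Rplp1 had 17624 reads and 2188 FPKM in WT library 1, of 13107941 reads in all. In WT library 2 it had 11897 reads and 1806 FPKM, of 15797928 reads in all. A read thus gave more FPKM in WT library 2, although that library had more reads. Shares of reads and FPKM can therefore order the libraries differently. TMM factors, which compare libraries by a trimmed mean of log ratios, were computed from the recovered reads. They were 1.19, 0.795 and 0.965 in WT and 0.867, 1.09 and 1.16 in knockout-labelled libraries. Whether the deposited values already carry factors of this kind was not tested. In what follows values are always given for libraries 1 to 3 of a group in that order.

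The family as a whole held 2.11% to 5.45% of the recovered reads of a library. Its summed FPKM as deposited was higher in the knockout-labelled libraries, though these 6 values do not separate widely. Summed over the 80 genes, the level was 22469, 16499 and 17565 FPKM in the WT libraries and 24012, 23852 and 30228 FPKM in the knockout-labelled ones. The groups did not overlap, but WT library 1 lay nearer to knockout-labelled libraries 1 and 2 than to the other WT libraries. The means were 18844 ± 3184 (SD, n = 3) and 26031 ± 3636 FPKM (SD, n = 3), a ratio of 1.38. As a share of all reads the family held 4.29%, 2.11% and 2.53% in WT and 3.21%, 4.03% and 5.45% in knockout-labelled libraries, and here the groups overlapped, since WT library 1 was second only to knockout-labelled library 3. Counted over nuclear reads alone the shares were 5.38%, 2.39% and 4.48% against 4.11%, 4.41% and 6.45%, which overlapped as well. When every library was scaled to the same nuclear sum, the family summed to 26960, 12552 and 25379 in WT and 20608, 22775 and 31903 in knockout-labelled libraries. These values overlapped, and the ratio of the means was 1.16. Scaled to the same sum over all genes (TPM), the groups overlapped as well, with a ratio of the means of 1.47.

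The ratio of the subunits in summed FPKM, on which highly read genes weigh most, was slightly lower in the knockout-labelled libraries. The large subunit genes summed to 1.682, 1.746 and 1.700 times the small subunit genes in WT libraries and to 1.677, 1.659 and 1.640 times in knockout-labelled libraries. The groups did not overlap, by a narrow margin between library 1 of each. The ratio was 1.71 ± 0.03 (SD, n = 3) in WT and 1.66 ± 0.02 (SD, n = 3) in the knockout-labelled group. Mean large subunit sums in the knockout-labelled group were 1.37 times and small subunit sums 1.41 times those of WT. Among highly read large subunit genes, the ratio of means was 1.20 for Rplp1 (1827 to 2183 FPKM) and 0.75 for Rpl17 (583 to 438 FPKM). How the subunit ratio would stand without such genes was not tested. The median log2 fold change was 0.46 in both subunits.

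**Figure D1:**
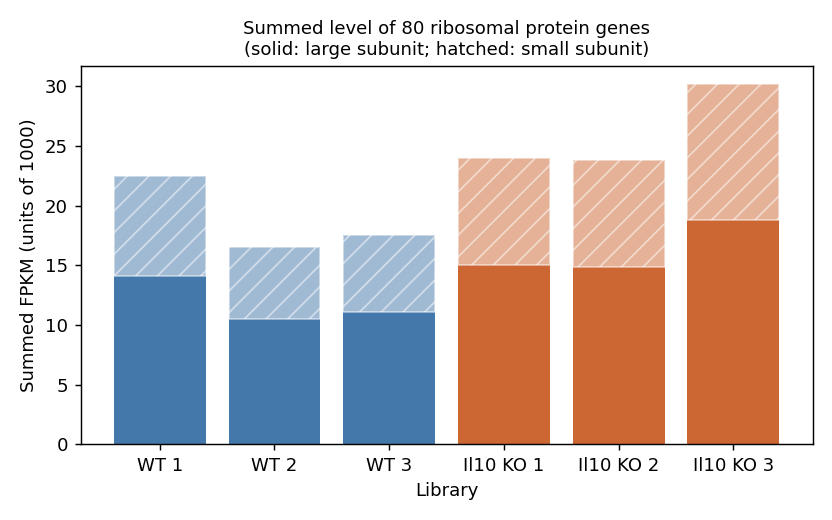
Summed FPKM (in units of 1000, linear axis from 0) of the 80 ribosomal protein genes in each library, with large subunit genes solid and small subunit genes hatched on top (blue, WT; orange, knockout-labelled). The 3 knockout-labelled libraries reach 24012, 23852 and 30228 FPKM, and WT library 1 at 22469 FPKM stands closest to them.

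Of the 80 genes, 77 had a mean of at least 1 FPKM and entered the gene-by-gene test, 46 of the large and 31 of the small subunit. None was called: limma with adjustment over the 12668 genes tested gave 0 ribosomal protein genes higher and 0 lower in the knockout-labelled libraries, against 23 genes of all tested called higher (0.182%) and 0 called lower (0%). The smallest adjusted p of a ribosomal protein gene was 0.381 and the largest 0.985. At an unadjusted p under 0.05 there were 5 ribosomal protein genes, all with higher values (6.49%), against 6.14% of all genes higher and 4.03% lower, so their share was near the background. A voom fit on recovered reads also called 0 of them and 2 of all genes (0.0158%). Standard errors had a median of 0.34 on the log2 scale (range 0.23 to 0.56). On simulated libraries of 3 against 3, the test recovered 0% of genes changed by 0.5 and 3.4% of those changed by 1 on the log2 scale. The simulation drew noise for each gene independently and changed 200 of 12668 genes at random, so it does not cover genes that move together. In that setting, changes of the size seen in most of these genes were seldom called.

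The estimates themselves pointed one way. Fold changes are on the log2(FPKM + 1) scale, knockout-labelled minus WT. Of the 77 genes, 76 had a positive value, against 54.1% of all genes tested. Their median was 0.46 (quartiles 0.35 and 0.60, range −0.32 to 1.62), and the median of all genes was 0.04. Nuclear genes of similar abundance are a closer comparison: 426 other nuclear genes with a mean of at least 100 FPKM had a median of 0.46 as well, with 77.2% positive and far wider values (SD 1.45, against 0.26 for the ribosomal protein genes). The median of the large subunit was 0.46 over 46 genes and that of the small subunit 0.46 over 31. All 3 knockout-labelled libraries lay above all 3 WT libraries for 31 of the 77 genes (40.3%), 18 of the large and 13 of the small subunit, against 8.84% of all genes tested and 16.9% of the 426 abundant genes. That count depended on the scaling. It was 27 after TMM scaling of recovered reads (7.89% of all genes) and 7 in TPM (6.39%). With equal nuclear sums it was 2 (5.55%), and after quantile normalization it was 2 (7.95%). The median of the 77 genes was 0.43, 0.57, 0.26 and 0.11 in these, in that order. None had all knockout-labelled libraries below (7.89% of all genes). These genes move together between libraries, so their counts are not independent of each other, and with 3 libraries against 3 an exact two-sided permutation test of a single gene cannot go below 0.1.

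**Figure D2:**
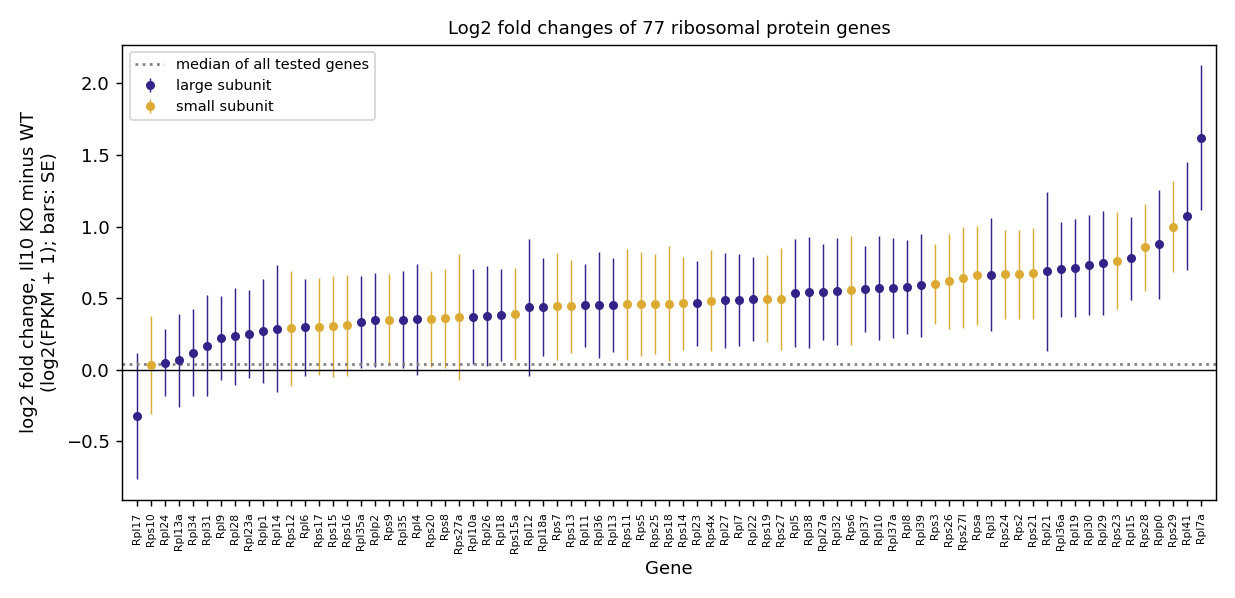
Log2 fold change (knockout-labelled minus WT, log2(FPKM + 1) scale) of the 77 ribosomal protein genes tested, ordered by value, with standard errors as bars; large subunit genes are purple and small subunit genes yellow, and the dotted line marks the median of all genes tested (0.04). All points but Rpl17 (−0.32) lie above 0, most between 0.35 and 0.60, with Rpl7a at 1.62.

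The 6 libraries did not fall into 2 tight groups. The median deviation of the 77 genes from their own mean over the 6 libraries was 0.02, −0.45 and −0.32 in WT and 0.12, 0.16 and 0.47 in knockout-labelled libraries (log2 scale). WT library 1 thus stood apart from the other WT libraries, and knockout-labelled library 3 from the others of its group. WT library 1 was the highest WT library for 58 of the 77 genes and knockout-labelled library 3 the highest of its group for 68. Over all 6 libraries, knockout-labelled library 3 was the highest for 62 genes and WT library 2 the lowest for 50, with WT library 3 the lowest for 20. Against WT library 1, the 3 knockout-labelled libraries had higher values for 46, 50 and 66 of the 77 genes. Against WT library 2 the counts were 74, 76 and 77, and against WT library 3 they were 72, 65 and 75. Within WT, library 1 was above libraries 2 and 3 for 65 and 64 genes, and library 3 above library 2 for 55. Within the knockout-labelled group, library 3 was above libraries 1 and 2 for 70 and 72 genes, while library 2 was above library 1 for 38.

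Without WT libraries 2 and 3 the median fold change dropped to 0.21, with 59 of 77 genes positive, whereas without WT library 1 it was 0.61 and 61 of the 77 genes had groups that did not overlap (15.9% of all genes). The abundant non-ribosomal genes did not follow the same order. Their median deviations were −0.30, 0.43 and −0.87 in WT and 0.49, 0.21 and 0.04 in knockout-labelled libraries, and WT library 2 was thus low for ribosomal protein genes and high for these.

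**Figure D3:**
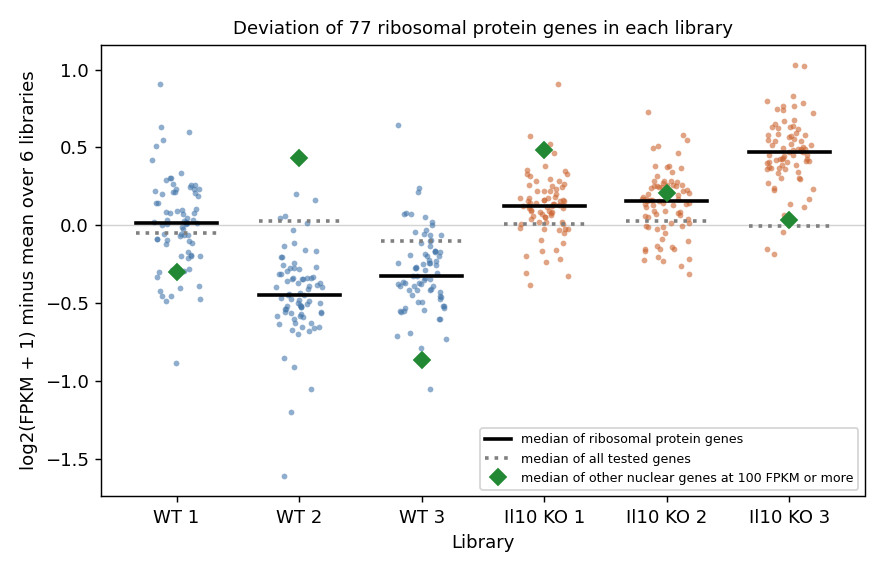
Deviation of each of the 77 genes from its mean over the 6 libraries (points, log2(FPKM + 1) scale) with the median of the 77 (black bar), of all genes tested (dotted bar) and of 426 other nuclear genes at 100 FPKM or more (diamond). The black bars run from −0.45 in WT library 2 to 0.47 in knockout-labelled library 3, with WT library 1 at 0.02, while the dotted bars stay between −0.10 and 0.03.

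Among large subunit genes, Rpl7a (chr2:26910764-26913318) had the greatest difference. It was read at 89.5, 24.2 and 36.1 FPKM in WT and 143, 108 and 155 FPKM in knockout-labelled libraries. WT library 1 was again the closest to the other group, and the groups did not overlap. The log2 fold change was 1.62 (SE 0.51, limma adjusted p = 0.381). Rpl7a has 24 sequence copies, defined as other genes with at least 20% of their 50-base words in its mRNA, and these held 42.6% of the reads of the gene and its copies together. Summed with them its log2 fold change was 0.60, so the value depends on how reads were placed. Its pseudogene Rpl7a-ps5 ran the other way, at 64.1, 99.7 and 111 FPKM in WT and 109, 51.8 and 59.9 FPKM in knockout-labelled libraries, with overlapping groups.

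Rpl41 (chr10:128548114-128549305), which encodes the smallest ribosomal protein, was read at 257, 424 and 324 FPKM in WT and 533, 790 and 787 FPKM in knockout-labelled libraries. The groups did not overlap and, unlike for most of the family, WT library 1 was the lowest. The log2 fold change was 1.07 (SE 0.37, limma adjusted p = 0.440). With array weights, which give each library a weight from its own spread, it was 1.42 with a limma adjusted p of 0.0496. Rpl41 was the only ribosomal protein gene called there, where 2.61% of all genes were called. WT library 1 had a weight of 2.76, against 0.198 and 0.465 for WT libraries 2 and 3, so this value leans on WT library 1. Rpl41 has 1 copy, which held 1.09% of the reads, and the fold change with it was 1.06. Rpl39, another very short protein at the exit of the peptide tunnel, was read at 367, 209 and 225 FPKM against 399, 349 and 423 FPKM, and here the groups overlapped at WT library 1 (log2 fold change 0.59, limma adjusted p = 0.632).

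Rps29 (chr12:69157722-69159186), a zinc-binding protein of the small subunit, was even across the WT libraries. Its WT values of 282, 269 and 270 FPKM lay within a narrow band, and the knockout-labelled values were 575, 459 and 620 FPKM. The means were 274 ± 7.43 (SD, n = 3) and 552 ± 83.2 FPKM (SD, n = 3), and the log2 fold change was 1.00 (SE 0.32, limma adjusted p = 0.394). Rps28, another short small subunit protein, was read at 63.5, 58.0 and 64.2 FPKM in WT and 96.1, 99.7 and 149 FPKM in knockout-labelled libraries (log2 fold change 0.86, limma adjusted p = 0.445). Rpl15, a large subunit protein that binds 28S rRNA, was likewise even in WT, at 64.0, 66.4 and 66.6 FPKM, with 91.2, 120 and 133 FPKM in the knockout-labelled libraries (log2 fold change 0.78, limma adjusted p = 0.455). For these 3 genes WT library 1 was not set apart from WT libraries 2 and 3.

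The stalk recruits elongation factors to the large subunit, with Rplp0 as its base and Rplp1 and Rplp2 as its arms. Rplp0 was read at 667, 585 and 461 FPKM in WT and 778, 1089 and 1318 FPKM in knockout-labelled libraries, groups that did not overlap (log2 fold change 0.88, SE 0.38, limma adjusted p = 0.506). Rplp1, the most highly read member of the family, was at 2188, 1806 and 1486 FPKM against 2167, 2064 and 2318 FPKM, which overlapped (log2 fold change 0.27, limma adjusted p = 0.847). Rplp2 stood at 99.5, 140 and 90.2 FPKM against 124, 123 and 171 FPKM, with overlapping groups (0.35, adjusted p = 0.770 by the same limma fit). The 3 stalk genes thus shared a sign, with standard errors of 0.33 to 0.38, and whether they differ from each other was not tested. Rpsa, a small subunit protein also known as the laminin receptor, was read at 345, 229 and 258 FPKM in WT and 374, 407 and 530 FPKM in knockout-labelled libraries (log2 fold change 0.66, limma adjusted p = 0.571).

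Rpl5 and Rpl11 form, with 5S rRNA, the particle that also binds Mdm2 when ribosome assembly is disturbed. Rpl11 was read at 141, 127 and 127 FPKM in WT and 197, 156 and 190 FPKM in knockout-labelled libraries, without overlap (log2 fold change 0.45, limma adjusted p = 0.650). Rpl5 was at 124, 76.6 and 74.9 FPKM against 92.6, 141 and 168 FPKM, and the groups overlapped because WT library 1 exceeded knockout-labelled library 1 (log2 fold change 0.54, limma adjusted p = 0.676). Rps27a, made as a fusion with ubiquitin, had its highest value in WT library 1, at 155, 64.0 and 67.8 FPKM in WT and 89.1, 147 and 112 FPKM in knockout-labelled libraries (log2 fold change 0.37, limma adjusted p = 0.824). Without WT libraries 2 and 3 the sign of Rps27a turned, to −0.45.

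Several genes of the family are known for regulation or disease. Rps6, the target of S6 kinase, was read at 333, 200 and 290 FPKM in WT and 305, 387 and 519 FPKM in knockout-labelled libraries, which overlapped. Rps19, mutated in Diamond-Blackfan anaemia, was at 78.8, 53.7 and 56.1 FPKM against 78.9, 82.4 and 104 FPKM, which did not overlap, though WT library 1 and knockout-labelled library 1 were almost equal. Rps3, which also takes part in DNA repair, was at 83.1, 84.5 and 78.1 FPKM against 110, 121 and 145 FPKM, a clear gap. Their log2 fold changes were 0.55, 0.50 and 0.60, with limma adjusted p from 0.524 to 0.669. Of the large subunit genes in this set, Rpl10, Rpl22 and Rpl38 stood at 0.57, 0.49 and 0.54 on the log2 scale, and of these Rpl22 alone showed no overlap of its groups (94.4, 67.7 and 78.0 FPKM against 113, 97.8 and 128 FPKM).

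The genes at the low end of the fold changes were of 2 kinds. Rpl17 (chr18:75000477-75003381), a large subunit protein, was the only gene with a negative value, and WT library 1 decided it: it was read at 908, 368 and 475 FPKM in WT and 391, 389 and 533 FPKM in knockout-labelled libraries. The log2 fold change was −0.32 (SE 0.44, limma adjusted p = 0.850) and became 0.05 without WT library 1. Its 12 copies held 54.8% of the reads, and summed with them the value was −0.01. Rpl34 and Rpl31, large subunit proteins read at over 100 FPKM, had log2 fold changes of 0.12 and 0.17. Rpl34 ranged from 113 to 164 FPKM in WT and from 136 to 150 FPKM in knockout-labelled libraries, and both genes had WT library 1 as their highest library.

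The other kind consisted of genes with hardly any reads. Rps10, Rpl24 and Rpl13a had means of 1.06, 5.47 and 11.3 FPKM, whereas the other 74 genes tested had means from 44.1 to 2005 FPKM. Rps10 was at 1.85, 0.295 and 1.10 FPKM in WT and 1.13, 0.798 and 1.17 FPKM in knockout-labelled libraries, from 217 reads in all. Rpl24 was at 5.77, 4.56 and 5.63 FPKM against 4.92, 7.29 and 4.64 FPKM, and Rpl13a at 12.9, 7.13 and 13.1 FPKM against 15.5, 9.29 and 9.75 FPKM. Their log2 fold changes were 0.03, 0.05 and 0.06, and all 3 changed sign when WT library 2 was left out. All 3 encode constituents of the ribosome, and Rpl13a is also known as a gene whose protein can silence inflammatory mRNAs.

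These 3 were the only genes of the family with over 50% of their mRNA inside exons of another gene annotated on the same strand in GENCODE M21. For Rps10 it was 66.7%, shared with the read-through gene RPS10-NUDT3, for Rpl24 71.5%, shared with Gm28037, and for Rpl13a 59.3%, shared with Gm45713. Each of the 3 overlapping genes was listed at 0 in all 6 libraries. Overlap on the opposite strand went with no such gap: Rpl35, Rpl23a, Rps25 and Rpl5 had 68.3%, 55.4%, 52.2% and 46.6% of their mRNA inside opposite-strand exons of Wdr38, Tlcd1, Trappc4 and Fam69a, and had means of 113 to 236 FPKM. The part of overlap in the levels of Rps10, Rpl24 and Rpl13a was not tested.

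**Figure D4:**
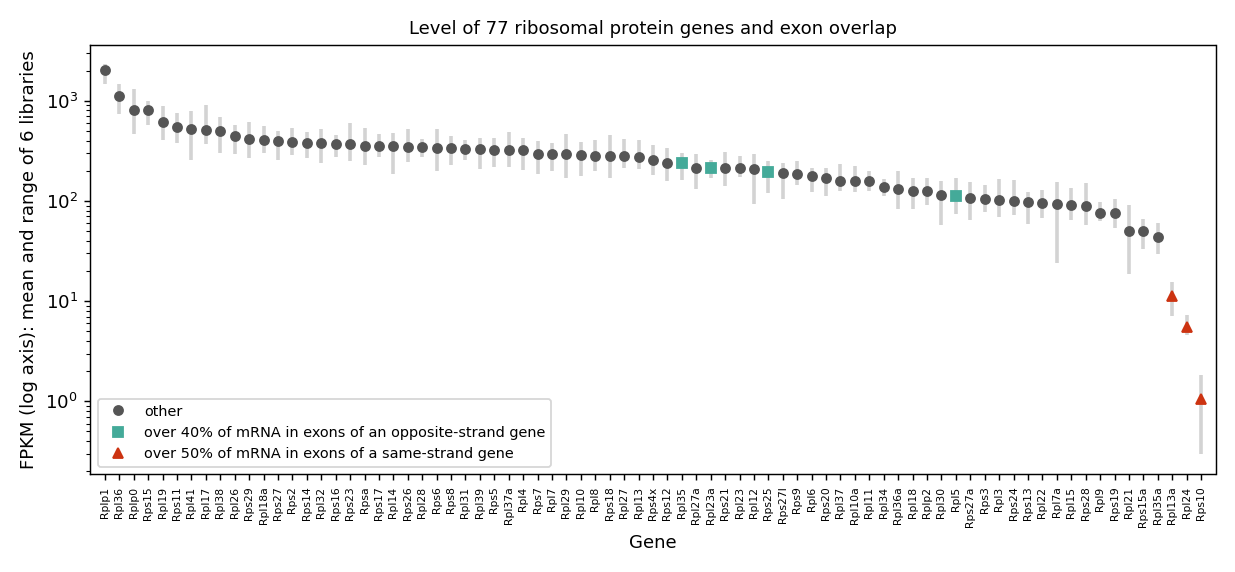
Mean FPKM of the 77 tested genes over the 6 libraries (points, log axis) with the range of the 6 values (grey lines), ordered by mean. The 3 genes with over 50% of their mRNA in same-strand exons of another gene (red triangles; Rpl13a, Rpl24 and Rps10) lie at 11.3, 5.47 and 1.06 FPKM, below all others, while the 4 with over 40% in opposite-strand exons (green squares) lie between 113 and 236 FPKM.

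Reads with Rps10 sequence were present under another name. Its 3 sequence copies held 9268 reads against 217 in Rps10 itself, or 97.7% of the sum. Most of these were in Rps10-ps2, the pseudogene shown above, at 74.5, 83.7 and 91.9 FPKM in WT and 158, 267 and 324 FPKM in knockout-labelled libraries (log2 fold change 1.51, SE 0.37, limma adjusted p = 0.266). Rps10 and its copies summed gave 26.5, 25.2 and 32.1 FPKM against 45.9, 65.5 and 80.9 FPKM, groups that did not overlap, and a log2 fold change of 1.14 in place of 0.03. For Rpl24 the sum with its 3 copies gave 0.41 in place of 0.05, and for Rpl13a with 2 copies 0.13 in place of 0.06. Rps12-ps3, named as a pseudogene and listed as protein-coding, had 136, 116 and 218 FPKM in WT and 438, 737 and 640 FPKM in knockout-labelled libraries (log2 fold change 1.96, limma adjusted p = 0.178), and Rps12 with its 18 copies had 0.67 where Rps12 alone had 0.29.

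Across the family the copies changed little. The 449 sequence copies held 8.53% to 9.61% of the reads of family and copies together in each library, with no separation of the groups. With copies added the median log2 fold change was 0.48 instead of 0.46. The 43 tested genes with at least 50% of their words shared had a median of 0.45 and the other 34 a median of 0.49. Ribosomal protein pseudogenes as a list, 88 of 298 of which passed the filter on low values, had a median of 0.31, with 72 positive.

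Of the paralogs within the naming rule, 3 were near 0. Rpl10l, an autosomal intronless relative of Rpl10 known from testis, had no read in any library, Rpl39l had 3 reads in all, and Rpl3l, a muscle form of Rpl3, had 26 reads with 1.08 FPKM in WT library 3 and at most 0.0922 FPKM elsewhere. Smooth muscle marker genes were also highest in WT library 3, where 12 of them summed to 11917 FPKM against 232 to 1885 FPKM in the other 5 libraries, and their part in the Rpl3l value was not tested. These are the 3 genes that did not pass the filter on low values. Rps27l, a p53 target and the paralog shown above, was in contrast read at 145, 205 and 106 FPKM in WT and 234, 239 and 217 FPKM in knockout-labelled libraries, without overlap (log2 fold change 0.64, limma adjusted p = 0.586). Rps27rt, which cannot be told apart from Rps27 in its coding sequence, was at 206, 159 and 242 FPKM against 459, 244 and 331 FPKM. Rps27 alone had a log2 fold change of 0.50 and with its 3 copies 0.55.

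Levels between genes of the family depend on the length used. The most highly read were Rplp1, Rpl36, Rplp0, Rps15 and Rpl19, with means of 2005, 1103, 816, 802 and 616 FPKM. The deposited gene lengths were 1.00 to 9.80 times the length of the coding mRNA (median 2.21). Per kilobase of coding mRNA, the 74 genes above 20 FPKM spanned a range of 22.0-fold instead of 45.5-fold, and the ratio of the upper to the lower quartile was 1.95 instead of 2.67. Rps18 moved from rank 36 to rank 2 and Rps15a, with the greatest length ratio, from rank 73 to rank 44, while Rplp1 stayed first. The ratio of a single gene's FPKM between libraries is not touched by this, because each gene has 1 length. Sums over genes and the ratio of the subunits weight each gene by the inverse of its length. They can therefore change with the length used.

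The rest of the translation machinery gave the following values, none of it called in the limma fit. Ribosomal proteins outside the naming rule, among them Rps3a1, Rack1 and Fau, had positive values for 9 of 9 genes tested with a median log2 fold change of 0.43. Rps3a1 was read at 692, 536 and 478 FPKM in WT and 605, 840 and 926 FPKM in knockout-labelled libraries, with WT library 1 above knockout-labelled library 1 as in much of the family. Elongation factors and other TOP mRNAs had positive values for 12 of 13 genes, with a median of 0.41. Pabpc1, the poly(A)-binding protein, was at 72.6, 68.5 and 46.3 FPKM against 87.6, 120 and 120 FPKM (log2 fold change 0.81, limma adjusted p = 0.474). Initiation factors were positive for 22 of 29 genes with a lower median of 0.16. Eif2s2, a subunit of the factor that brings the initiator tRNA, had the smallest p among them, at 26.7, 36.8 and 14.7 FPKM against 76.5, 78.7 and 56.3 FPKM (log2 fold change 1.48, limma adjusted p = 0.310).

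RNA polymerase I subunits and ribosome assembly factors had positive values for 42 of 52 genes with a median of 0.24, and for 3 of 52 (5.77%) all knockout-labelled libraries lay above all WT libraries, no more than the 8.84% of all genes. Mitochondrial ribosomal proteins had positive values for 60 of 77 genes tested, a median of 0.14, and 6 of 77 genes (7.79%) with all knockout-labelled libraries above all WT libraries, near the 8.84% of all genes. Regulators of ribosomal protein synthesis were positive for 6 of 17 genes, with a median of −0.14. Mtor and Larp1 had log2 fold changes of 0.05 and 0.00. Eif4ebp1, which holds back cap-dependent initiation, was at 5.84, 11.2 and 10.4 FPKM against 22.2, 33.6 and 25.3 FPKM (log2 fold change 1.49, limma adjusted p = 0.201). Myc, a driver of ribosome production, had the same order of libraries within each group as the median of the ribosomal protein genes, at 13.0, 2.26 and 7.46 FPKM in WT and 5.42, 11.6 and 20.6 FPKM in knockout-labelled libraries, and the groups overlapped.

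**Figure D5:**
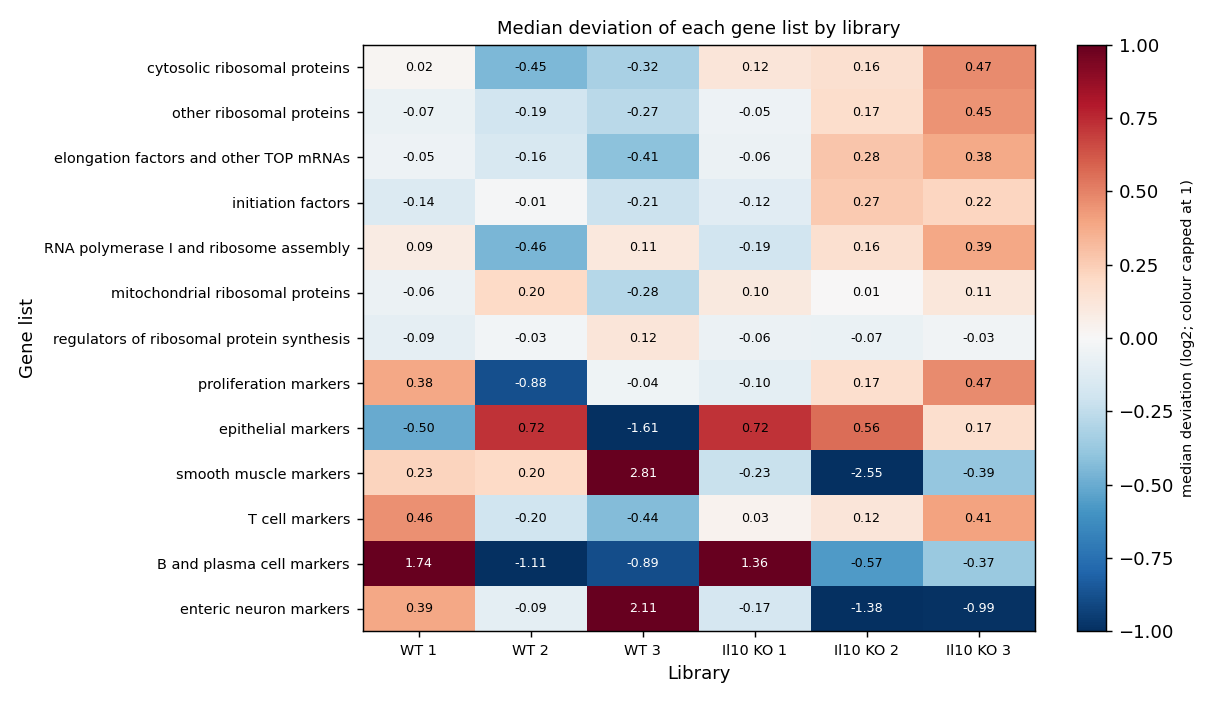
Median deviation from the mean over 6 libraries (log2(FPKM + 1) scale, colour capped at 1, values printed) of the ribosomal protein genes and of companion lists in each library. The upper 3 rows are lowest in WT libraries 2 and 3 and highest in knockout-labelled library 3, proliferation markers are lowest in WT library 2 (−0.88), and smooth muscle markers peak in WT library 3 (2.81).

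Markers of cell types moved between the same libraries, and their part in the ribosomal protein values was not tested. The 16 proliferation markers, none of which was at 0, summed to 81 to 187 FPKM in WT and 123 to 184 FPKM in knockout-labelled libraries, with median deviations of 0.38, −0.88 and −0.04 against −0.10, 0.17 and 0.47. They were thus lowest in WT library 2 and high in WT library 1 and knockout-labelled library 3, the libraries at the low and high ends for the ribosomal protein genes of their groups. For 15 of 16 the fold change was positive (median 0.34). The 7 T cell markers tested had median deviations of 0.46, −0.20 and −0.44 against 0.03, 0.12 and 0.41, with 8 genes summing to 13.4 to 35.5 FPKM in WT and 22.8 to 33.9 FPKM in knockout-labelled libraries.

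Epithelial, smooth muscle and enteric neuron markers had other orders of the WT libraries, whereas 2 further lists shared the WT order. The 12 epithelial markers were positive for 12 of 12 genes with a median of 0.86 and summed to 2647 to 14916 FPKM in WT and 10362 to 15353 FPKM in knockout-labelled libraries, with WT library 2 among the highest. The 12 smooth muscle markers were negative for 12 of 12 (median −2.18), at 1810 to 11917 FPKM against 232 to 1393 FPKM. The 9 enteric neuron markers tested were negative for 8 (median −1.59), with 10 genes summing to 39.7 to 274 FPKM against 12.3 to 43.8 FPKM. The 10 B and plasma cell markers summed to 468 to 17028 FPKM in WT and 4163 to 7259 FPKM in knockout-labelled libraries, with 7 of 10 positive. WT library 1 held the 17028 FPKM. Their median deviations were 1.74, −1.11 and −0.89 in WT, the order of the ribosomal protein genes. In knockout-labelled libraries they were 1.36, −0.57 and −0.37, which was another order. Neutrophil markers were positive for 7 of 7 tested. Limma called 2 of them, S100a8 and S100a9, where 0.182% of all genes were called. S100a9 and Retnlg were at 0 in every WT library, and S100a8 was at most 0.223 FPKM there. These genes entered the test only through the knockout-labelled libraries, so the filter fixed their sign. The 9 neutrophil genes summed to 0.941 to 126 FPKM against 996 to 1892 FPKM, with 6 of the 9 at 0 in at least 1 WT library. Median deviations of those tested were −1.94, −2.34 and −2.08 against 0.75, 2.36 and 2.89. Within each group this was the order of the ribosomal protein genes. None of the 12 epithelial and 12 smooth muscle markers of the colon wall was at 0 over the 6 libraries.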

How the data were processed

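RNA of whole mouse colon was measured in 6 libraries, 3 per group, grouped by the labels' titles. Per the labels' protocols, tissue was frozen, RNA extracted with Trizol and an NEBNext Ultra kit used for the libraries. Bowtie 0.12.2 and 2 builds, hg38 and mm8, appear without a role, per the submitters' processing notes. How genes were counted, with or without strand, and what became of reads fitting several places is not given in the sources used here. The authors deposited 1 table of FPKM values per gene with lengths and coordinates, per the file headers. Of the 80 ribosomal protein genes, 78 had coordinates identical to GENCODE M21, so positions are given as GRCm38, although the notes name other builds.

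FPKM times gene length, divided by the smallest such value above 0 in each library, gave whole reads for 100% of values above 0 (tolerance 0.01). The deposited FPKM were not scaled to the totals of these reads alone. Members, companion lists and tests were chosen with earlier results of these data known. Values were tested as log2(FPKM + 1) with limma 3.58.1 in R 4.3.3 (mean trend, two-sided, Benjamini-Hochberg over 12668 genes with a mean of at least 1 FPKM, threshold 0.05), with no replicate block. In 10 simulated data sets of 12668 genes, each with 200 changed genes, 0%, 3.4%, 59.4% and 90% of genes changed by 0.5, 1, 2 and 3 on the log2 scale were called, and 5.8% of calls were false. Genes named with values were the 6 highest and 6 lowest fold changes, the 5 highest and 5 lowest levels, genes of known role, and up to 3 per companion list with the smallest p. Genes named outside that rule (Rps12-ps3, Rps27rt, Rps27, Rps12, Rpl7a-ps5, Rps18, Rps15a, the opposite-strand pairs and pathway genes) were chosen after their values were seen. Shared sequence was counted in 50-base words on either strand against all annotated transcripts of other genes. Alternatives covered pseudocount, filter, scaling, fit, array weights, replicate block, voom, each library left out and, chosen after seeing the data, WT libraries 2 and 3 left out and copies summed.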

Additional observations from a re-analysis of the deposited data

How the results depend on the processing

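The median log2 fold change of the ribosomal protein genes was positive under all 21 alternatives run, from 0.11 to 0.61, beside 0.46 in the reported fit. It was 0.11 after quantile normalization and 0.21 without WT libraries 2 and 3, and ranged from 0.36 to 0.61 with 1 library left out. Scaling moved all genes: their median was 0.15 in TPM and −0.13 with equal nuclear sums, where the ribosomal protein median was 0.57 and 0.26. Genes with non-overlapping groups numbered 31 as deposited and 27 after TMM scaling (7.89% of all genes). They numbered 2 after quantile normalization (7.95%), 7 in TPM (6.39%) and 2 with equal nuclear sums (5.55%). With 1 library left out they numbered 32 to 61 (10.5% to 26.4% of all genes). There were 61 without WT library 1 (15.9%) and 32 without WT library 2 (26.4%). The ratio of summed levels fell from 1.38 to 1.16 with equal nuclear sums, where the groups overlapped.

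The number of genes called over all genes was 23, and 9 with a pseudocount of 0.01, 4 with no filter, 46 in TPM, 331 with array weights, 2 with voom on recovered reads, 6 without WT libraries 2 and 3, and 4 to 29 with 1 library left out. Array weights called 1 ribosomal protein gene, Rpl41 (log2 fold change 1.42, limma adjusted p = 0.0496). In that fit the median of the ribosomal protein genes was 0.27, with 66 of 77 positive. Over the 29 named genes adjusted p ran from 0.0496 to 0.9996 across alternatives. With the replicate block 7 genes were called and 0 of the ribosomal protein genes. Deviations of same-numbered libraries correlated at −0.15, 0.18 and 0.40, so the numbers were not taken to pair the libraries.

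Of 608 values of named genes under alternatives, 579 kept their direction and side of the threshold and 28 changed sign. After quantile normalization Rpl13a, Rpl31 and Rpl34 were at −0.0677, −0.21 and −0.21. With equal nuclear sums Rpl13a, Rpl24, Rpl31, Rpl34 and Rps10 were at −0.14, −0.13, −0.0334, −0.0822 and −0.13. With array weights Rpl13a, Rpl31, Rpl34, Rps10 and Rps27a were at −0.24, −0.19, −0.13, −0.41 and −0.0986. With 1 library left out, Rpl17 ranged from −0.60 to 0.0499 (positive without WT library 1). Rpl13a ranged from −0.197 to 0.20 (negative without WT library 2 or knockout-labelled library 1) and Rpl24 from −0.123 to 0.153 (negative without WT library 2 or knockout-labelled library 2). Rps10 ranged from −0.274 to 0.295 (negative without WT library 2 or knockout-labelled libraries 1 or 3). Without WT libraries 2 and 3 Rpl13a, Rpl24, Rpl31, Rpl34, Rplp1, Rps10 and Rps27a were at −0.19, −0.0557, −0.25, −0.20, −0.00515, −0.49 and −0.45. The cause of these changes was not tested. Depth limits Rps10, Rpl3l, Rpl39l and Rpl10l, with 217, 26, 3 and 0 reads in all.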
